A study of Homo sapiens with 4 samples.

Results

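The genes described here had counts in the libraries of one group and were listed at 0 in both libraries of the other. They were chosen by their raw counts, with a count of 0 in both libraries of one group and at least 10 in each library of the other, and symbols starting with LINC, KCN, TRP, ZNF, CYP, PCDH, HOX, KRT, COL or SLC39 were left out. Of the 28278 genes listed, 61 met the rule. In 24 genes, 0.0946% of the 25362 symbols that were eligible, counts were present in control libraries only. In 37 genes, 0.146%, they were present only in the libraries labelled *USP22* knockout. These shares are set by the rule and carry no result of their own. In what follows these are the control-only and the knockout-only genes.

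The RNA came from HepG2 cells, a human liver cancer line, infected with lentivirus for Cas9 and either a control sgRNA or an sgRNA against *USP22*. Both populations were treated with Sorafenib, a multi-kinase inhibitor used in advanced liver cancer, for 24 h, and untreated cells were not analysed here. Each group had 2 libraries of polyA RNA, with totals between 62030307 and 64728272 counts. Nothing in the labels says that replicates were separate cultures, so p-values measure only the spread between these libraries. The cells were a lentivirally infected population for each sgRNA, so population and genotype cannot be told apart.

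The targeted gene was checked first. Control replicates 1 and 2 held 16450 and 16537 *USP22* counts and the replicates labelled knockout held 20279 and 20368, a log2 difference of 0.22 (SE 0.034, adjusted p = 0.000394). The transcript was not lower under the knockout label. Protein was not analysed here, and the paper reports that it checked the knockout at this level by Western blot. Directions below follow the label. Of 18 hepatocyte markers, 9 were listed at 0 in all 4 libraries (*ALB*, *APOA1*, *APOB*, *APOH*, *TTR*, *FGA*, *FGB*, *FOXA2* and *TAT*), and the summed level of the 18 was between 14.0 and 19.9 CPM, the counts scaled to library size with TMM factors. These 9 defining transcripts of the labelled liver cell type were thus not detected. No gene of the 61 was on that list or on the marker lists for epithelial, mesenchymal, endothelial, immune, neural or germ cells. The keratin markers of the epithelial list and the collagen markers of the mesenchymal list could not be, since the rule left out these symbols.

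USP22 is a ubiquitin-specific protease. It works in the SAGA co-activator complex, where it takes ubiquitin off histone H2B at transcribed genes, and it also acts on proteins other than histones. Many tissue-restricted genes give little or no RNA outside the cells that use them. Cancer-testis genes are an example, being silent in most tissues other than the germ line but active in many tumours. In bulk RNA, fewer cells that express a gene and less RNA per cell cannot be told apart.

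The sequences just upstream of 6 of these genes are shown because these genes lead the lists. They are the 3 control-only genes and the 3 knockout-only genes with the highest mean counts, leaving out the readthrough gene *PHOSPHO2-KLHL23*. Each is the 250 bases before the start of the gene's RefSeq transcript on GRCh38.p14, 5′ to 3′ on the gene's strand, with each CG dinucleotide in capitals.
EPB41L3: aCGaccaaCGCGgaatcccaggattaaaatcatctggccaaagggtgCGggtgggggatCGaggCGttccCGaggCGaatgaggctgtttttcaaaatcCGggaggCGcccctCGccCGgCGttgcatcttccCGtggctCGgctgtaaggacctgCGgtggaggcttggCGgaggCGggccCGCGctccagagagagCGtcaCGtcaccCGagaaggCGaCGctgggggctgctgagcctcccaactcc
ADAM19: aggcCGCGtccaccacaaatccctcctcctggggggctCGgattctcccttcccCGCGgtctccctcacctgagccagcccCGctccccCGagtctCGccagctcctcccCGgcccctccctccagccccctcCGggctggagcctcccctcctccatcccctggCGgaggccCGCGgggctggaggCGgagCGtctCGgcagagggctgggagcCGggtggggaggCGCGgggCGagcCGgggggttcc
PASD1: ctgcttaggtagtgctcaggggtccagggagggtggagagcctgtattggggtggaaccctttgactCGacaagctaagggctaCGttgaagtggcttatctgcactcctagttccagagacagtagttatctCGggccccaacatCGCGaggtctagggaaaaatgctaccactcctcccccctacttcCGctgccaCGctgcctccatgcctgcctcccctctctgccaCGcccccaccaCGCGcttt
MASP1: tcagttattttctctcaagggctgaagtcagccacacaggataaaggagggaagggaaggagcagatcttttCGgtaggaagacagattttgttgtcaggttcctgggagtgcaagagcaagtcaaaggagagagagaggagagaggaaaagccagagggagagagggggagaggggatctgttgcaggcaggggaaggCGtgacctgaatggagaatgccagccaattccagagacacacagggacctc
NTS: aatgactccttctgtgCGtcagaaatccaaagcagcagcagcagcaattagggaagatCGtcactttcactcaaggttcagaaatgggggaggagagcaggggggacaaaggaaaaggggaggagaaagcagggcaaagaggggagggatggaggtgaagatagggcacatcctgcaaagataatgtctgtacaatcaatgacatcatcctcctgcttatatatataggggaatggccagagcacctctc
CHL1: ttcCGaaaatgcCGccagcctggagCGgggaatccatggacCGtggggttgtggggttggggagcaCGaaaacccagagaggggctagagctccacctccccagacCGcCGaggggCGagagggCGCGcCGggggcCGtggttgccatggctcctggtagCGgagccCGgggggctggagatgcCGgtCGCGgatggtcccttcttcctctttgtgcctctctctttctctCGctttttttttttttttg
They lie at chr18:5628992-5629241 (minus strand), chr5:157575776-157576025 (minus), chrX:151563425-151563674 (plus), chr3:187291738-187291987 (minus), chr12:85874045-85874294 (plus) and chr3:197639-197888 (plus). The *EPB41L3* and *CHL1* windows fall inside the longer span RefSeq gives for these genes, and the other 4 lie directly upstream of theirs.

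CG dinucleotides, the site of DNA methylation, were unevenly spread over these windows. The *EPB41L3*, *ADAM19* and *CHL1* windows held 25, 21 and 18 of them, beside a median of 21 over the windows of 10982 tested genes. The *PASD1* window held 10, and the *MASP1* and *NTS* windows held 2 each. The number of CG dinucleotides was set against the number that the C and G content of the window gives. This ratio was 0.949 for *EPB41L3*, above that of 76.7% of tested genes. It was 0.733 for *CHL1*, above 35.8%, 0.586 for *ADAM19*, above 20.4%, and 0.471 for *PASD1*, above 15%. It was 0.137 for *MASP1* and 0.141 for *NTS*, above 3.42% and 3.52% of tested genes. Methylation was not measured here, and nothing is drawn from these letters about any factor. No promoter comparison over all 61 genes was made, since only 18 of the 24 and 29 of the 37 had an entry, which is under 80%.

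How far a 0 can be trusted was read from replicates of the same group. In each library about 11020 to 11251 genes were listed at 0, of which 9244 were at 0 in all 4. Among genes other than readthrough genes with 10 to 19 counts in one library, 9.08% were at 0 in its replicate (306 of 3369 over the 4 ordered pairs). The share was 1.35% at 20 to 49 counts (52 of 3858) and 0.0367% at 50 to 99 counts (1 of 2728). Readthrough genes, whose transcripts run from one gene into the next, had less stable zeros. Of 110 that reached 10 counts in any library, 25 (22.7%) were at 0 in one library and at 10 or more in its replicate, against 2.35% of 14867 other genes. At 10 to 19 counts in one library 7 of 22 readthrough values (31.8%) met a 0 in the replicate. At 100 or more counts 18 of 249 readthrough values still met a 0 in the replicate, and 8 of 46260 values of other genes did. In all, between 95 and 106 genes per ordered control pair and between 96 and 102 per knockout pair were at 0 in one replicate and at 10 or more in the other, and these counts run as high as 1523. Low values were also unevenly spread, with 214 genes at 3 counts and 460 at 4 in control replicate 1. A 0 in these files is thus a listing at 0, and it allows up to 3 counts, or 0.0457 to 0.0492 CPM per library, by counting error only.

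Most of the 61 genes had counts in the range where replicate zeros were frequent. The median mean count was 18.25 for control-only and 16 for knockout-only genes, and in 11 genes of each direction it was at least 20. In 5 control-only and 4 knockout-only genes it was at least 50. For comparison, 71.4% of the 14892 genes with a mean of at least 10 counts in control exceeded the highest control-only gene, and 75.5% of 14932 did so for the knockout. Together the control-only genes held 1107 and 1074 counts in control replicates 1 and 2, and the knockout-only genes 940 and 1016 in the knockout replicates. Replicates differed by a median of 1.27 times in the first set, with a highest of 2 times, and by 1.5 times in the second, with a highest of 2.9 times.

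By RefSeq class, 21 of the 24 control-only genes (87.5%) were protein coding and 3 were lncRNAs. Of the 37 knockout-only genes 31 (83.8%) were protein coding, 2 were lncRNAs and 4 were transcribed pseudogenes. Over all listed genes with a RefSeq entry and eligible symbol, 73.7% were protein coding, 11.5% lncRNAs, 4.14% transcribed pseudogenes and 7.74% miRNAs. Over the tested genes, which have enough counts to enter the fit, 89.2% were protein coding, 6.13% lncRNAs, 2.83% transcribed pseudogenes and 0.447% miRNAs. The protein-coding share of both sets was thus above that of all listed genes and below that of tested genes. No miRNA or snoRNA gene was in either set. The shares were not tested, since the rule fixed the genes.

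**Figure D1:**
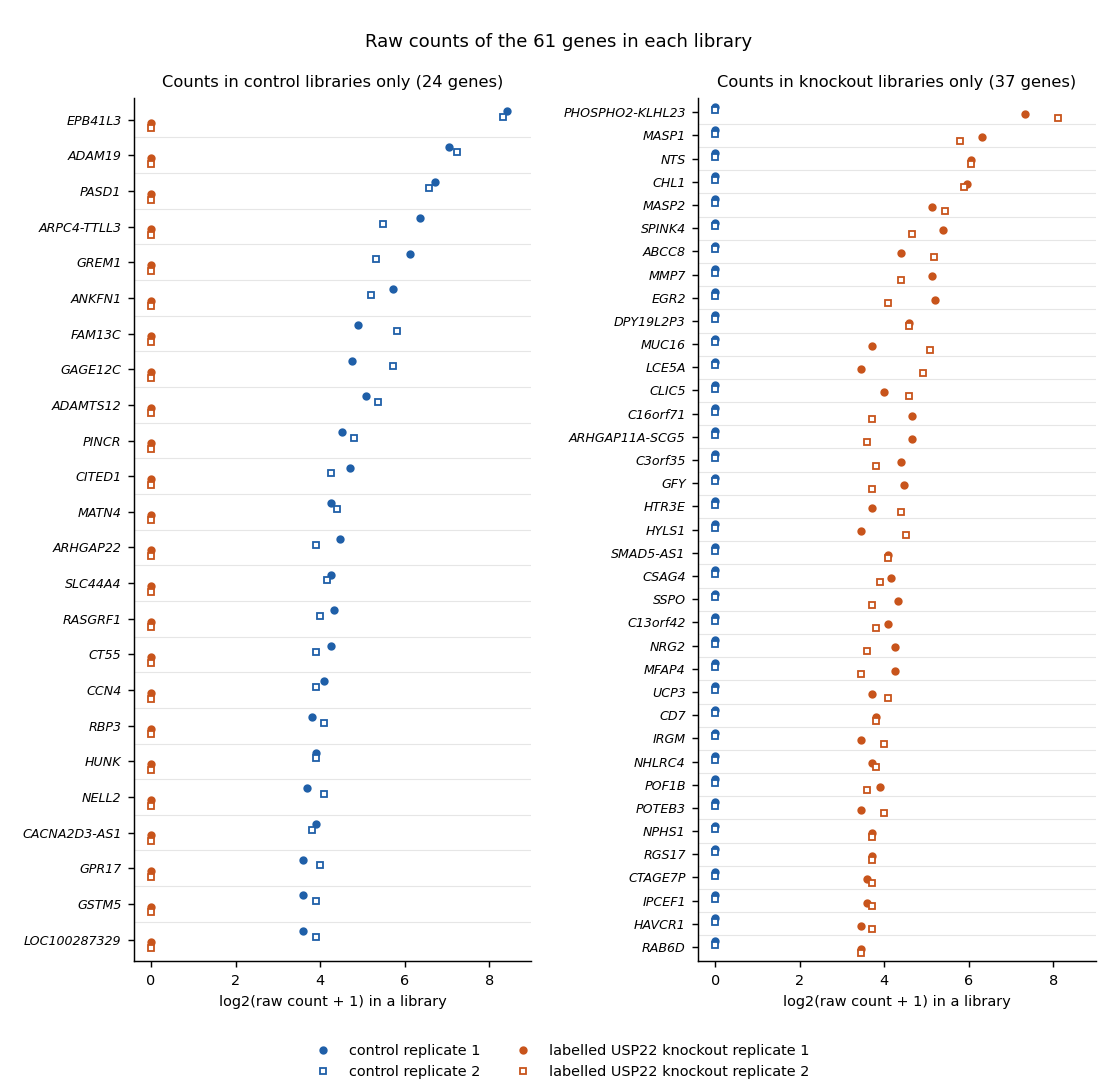
Raw counts of the 24 control-only genes (left) and the 37 knockout-only genes (right) in the 4 libraries, on a log2(count + 1) axis, ordered by mean count. Blue marks control and orange the libraries labelled knockout, with circles for replicate 1 and squares for replicate 2. Every gene sits at 0 in both libraries of one group, and *EPB41L3* at 339 and 322 counts is the highest on the left.

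By mean count *EPB41L3*, *ADAM19* and *PASD1* came first among the control-only genes. *EPB41L3* encodes a membrane-cytoskeleton linker with a FERM domain that is low in many tumours (chr18:5392386-5630663). It had 339 and 322 counts in control replicates 1 and 2, or 5.36 ± 0.282 CPM (SD, n = 2), which is at least 116-fold above the floor of the knockout libraries. No other control-only gene came near this level. *ADAM19*, a membrane metalloprotease that sheds ligands such as neuregulins (chr5:157477304-157575775), had 131 and 151 counts, or 2.28 ± 0.192 CPM, at least 49.6-fold. *PASD1*, a cancer-testis antigen on the X chromosome (chrX:151563675-151676739), had 104 and 94 counts, at least 34.9-fold. Each of these 3 genes had at least 94 counts in both control libraries, a level at which replicate zeros were rare.

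Genes of the extracellular matrix and secreted signals were a second group. *GREM1*, a secreted antagonist of bone morphogenetic proteins (chr15:32718004-32745106), had 69 and 39 control counts. *ADAMTS12*, a secreted protease of the matrix, had 33 and 40. *MATN4*, a matrilin of filamentous matrix networks, had 18 and 20. *CCN4*, a matricellular protein of the WNT response, had 16 and 14. *NELL2*, a secreted glycoprotein of neurons, had 12 and 16. The last 3 lie at the lower end. Among genes other than readthrough genes with 10 to 19 counts in one library, 9.08% were at 0 in its replicate. That share is for a 0 in a single library, whereas the rule asks for 0 in both libraries of a group.

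Signalling and scaffold genes were found at middle and low levels. *FAM13C* had 29 and 55 counts. *ANKFN1*, an ankyrin-repeat gene, had 52 and 36. *CITED1*, a co-activator that binds CBP and p300, had 25 and 18. *ARHGAP22*, a Rac-directed GTPase-activating protein, had 21 and 14. *RASGRF1*, an exchange factor for Ras, had 19 and 15. *HUNK*, a kinase related to AMPK, had 14 and 14. *GPR17*, an orphan receptor of oligodendrocyte precursors, had 11 and 15. These 7 genes were spread from 11 to 55 counts with no common level.

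The rest were transport, metabolic, germ-line and noncoding genes. *SLC44A4*, a choline transporter-like protein, had 18 and 17 counts. *RBP3*, a retinoid carrier of the eye, had 13 and 16. *GSTM5*, a glutathione transferase, had 11 and 14. The cancer-testis genes *GAGE12C* and *CT55* had 26 and 52, and 18 and 14. The lncRNAs *PINCR*, *CACNA2D3-AS1* and *LOC100287329* had 22 and 27, 14 and 13, and 11 and 14. *ARPC4-TTLL3*, a readthrough gene, had 81 and 44. Of the 24 genes, 5 (20.8%) lie on the X chromosome (*PASD1*, *GAGE12C*, *PINCR*, *CITED1* and *CT55*), against 2 of the 37 knockout-only genes (5.41%) and 4.35% of all listed genes. On chromosome 10 beyond 40 Mb lay *FAM13C*, *ARHGAP22* and *RBP3* (12.5%), and *EGR2* and *CTAGE7P* of the knockout-only set (5.41%), against 2.97% of listed genes. Both counts by chromosome were made after the values were seen.

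The highest knockout-only gene was *PHOSPHO2-KLHL23*, a readthrough gene, with 159 and 275 counts (3.34 ± 1.30 CPM, 68.7-fold the floor of the control libraries). Readthrough genes were the class in which zeros were least stable, so this fold is not a lower bound. Of the genes with a single transcription unit, *MASP1*, a serine protease that mannose-binding lectin and ficolins carry to start the lectin pathway of complement (chr3:187217282-187291737), came first with 78 and 54 counts (1.01 ± 0.248 CPM, at least 20.8-fold). *MASP2*, the second protease of that pathway, which cleaves C4 and C2 (chr1:11026523-11047239), had 34 and 42 counts, at least 12-fold. The pair was at 0 in both control libraries.

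Secreted and cell-surface genes were among the coding genes that followed. *NTS*, the neurotensin precursor of gut endocrine cells and neurons (chr12:85874295-85882992), had 65 counts in each knockout library, at 0.998 ± 0.0125 CPM and at least 20.5-fold. *CHL1*, a neural adhesion molecule of the L1 family (chr3:196763-409417), had 61 and 58, at least 18.8-fold. *SPINK4*, a Kazal-type protease inhibitor of intestinal goblet cells, had 41 and 24. *MMP7*, an epithelial metalloprotease, had 34 and 20. These 4 genes lie on different chromosomes and are known from epithelia or nerve.

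Further surface, secreted and epithelial genes had lower counts. *MUC16*, the large mucin detected as CA125, had 12 and 33 counts. *NRG2*, an epidermal growth factor-like ligand of ERBB receptors, had 18 and 11. *MFAP4*, a microfibril-associated glycoprotein, had 18 and 10. *CD7*, a lymphocyte surface antigen, had 13 and 13. *NPHS1*, the nephrin of kidney podocytes, had 12 and 12. *HAVCR1*, a phosphatidylserine receptor, had 10 and 12. *LCE5A*, a late cornified envelope gene, had 10 and 29. *POF1B*, an actin-binding epithelial protein, had 14 and 11. *MUC16* and *LCE5A* differed by more than 2 times between their 2 knockout libraries.

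Channel, transporter and signalling genes followed. *ABCC8*, the sulfonylurea receptor subunit of a potassium channel, had 20 and 35 counts. *CLIC5*, an intracellular channel-like protein, had 15 and 23. *HTR3E*, a serotonin-gated channel subunit, had 12 and 20. *UCP3*, a mitochondrial uncoupling protein, had 12 and 16. *EGR2*, a zinc finger transcription factor of the immediate early response, had 36 and 16. *RGS17*, a regulator of G protein signalling, had 12 and 12. *IPCEF1*, a partner of cytohesin exchange factors, had 11 and 12. *IRGM*, a GTPase of autophagy, had 10 and 15. *RAB6D*, a RAB6-like gene, had 10 and 10. None of these genes except *ABCC8*, *CLIC5* and *EGR2* reached 15 counts in both libraries.

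The remaining knockout-only genes were of little-known function, linked to cilia, or noncoding. *HYLS1*, a centriole protein, had 10 and 22 counts. *C16orf71*, now named *DNAAF8* and linked to dynein assembly, had 24 and 12. *GFY*, a Golgi protein of olfactory neurons, had 21 and 12, *C13orf42* had 16 and 13 and *NHLRC4* had 12 and 13. *POTEB3* had 10 and 15. The lncRNAs *C3orf35* and *SMAD5-AS1* had 20 and 13, and 16 and 16. The pseudogenes *DPY19L2P3*, *SSPO*, *CSAG4* and *CTAGE7P* had 23 and 23, 19 and 12, 17 and 14, and 11 and 12. The readthrough gene *ARHGAP11A-SCG5* had 24 and 11.

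The boundary of the rule is where the sets are least certain. Just inside it stood *GSTM5* and *LOC100287329* (each 11 and 14) and *GPR17* (11 and 15) in control, and *RAB6D* (10 and 10), *HAVCR1* (10 and 12) and *IRGM* (10 and 15) in the knockout. Just outside stood *CHST5* (15 and 9), *SLC2A5* (14 and 9) and *UBBP4* (10 and 9) in control, and *TUBA3D* (9 and 18), *LOC101927793* (9 and 15) and *DUSP15* (9 and 11) in the knockout, all at 0 in the other group. A larger count with a few reads in the other group also kept genes out. *SNORD14E*, a small nucleolar RNA gene, had 65 and 58 counts in control and 3 and 1 in the knockout, and *RPS6KA2*, an S6 kinase, had 42 and 50 against 0 and 3. *VANGL2*, a planar polarity protein, had 0 and 3 against 34 and 37. A minimum of 20 counts in each library left 10 control-only and 9 knockout-only genes, and a minimum of 50 left 3 and 4. The 3 were *EPB41L3*, *ADAM19* and *PASD1*, and the 4 were *PHOSPHO2-KLHL23*, *MASP1*, *NTS* and *CHL1*.

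In the fit across all genes, edgeR tested 15150 genes and called 1345 higher (8.88%) and 1098 lower (7.25%) in the libraries labelled knockout, with thresholds of 0.05 on the adjusted p and 1.5 on the fold. All 24 control-only genes entered this fit. Of the knockout-only genes 31 entered, and the other 6 (*LCE5A*, *HYLS1*, *IRGM*, *POTEB3*, *HAVCR1* and *RAB6D*) were below its count filter, each with 10 counts in knockout replicate 1. Those that entered differed by construction, so their calls are not given as results. The tests below concern genes the rule did not use. The sets of related genes were put together after the values were seen.

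The 3 readthrough genes share exons with the genes on either side, so their counts depend on how StringTie split the coverage. For *PHOSPHO2-KLHL23* the upstream gene *PHOSPHO2* had 217 and 212 counts in control and 222 and 254 in the knockout (log2 difference 0.07, adjusted p = 0.753). The downstream *KLHL23* had 1481 and 1492 against 1964 and 2008, a log2 difference of 0.34 (SE 0.069, adjusted p = 0.00225), under the fold threshold. The readthrough counts were thus a small part of a locus whose 3 genes summed to 1698 and 1704 in control and to 2345 and 2537 in the knockout. For *ARPC4-TTLL3*, *ARPC4*, a subunit of the actin-nucleating Arp2/3 complex, had a log2 difference of -0.34 (SE 0.042, adjusted p = 9.67e-05) and *TTLL3* of 0.08 (adjusted p = 0.745). For *ARHGAP11A-SCG5*, *ARHGAP11A* had 0.50 (SE 0.039, adjusted p = 4.89e-06), and *SCG5*, a chaperone of prohormone processing, had 40 and 30 counts against 13 and 22 (-1.07, adjusted p = 0.113). None of these 6 component genes was called.

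Several genes have near-identical copies, among which reads cannot be placed with certainty. The GAGE genes on the X chromosome are such copies, and of 22 listed 15 were at 0 throughout. Their summed counts were 243 and 263 in control and 6 and 18 in the knockout, so the lower counts extended over the copies beyond *GAGE12C*. *GAGE1* had 102 and 119 counts against 3 and 13 (log2 difference -3.84, SE 0.520, adjusted p = 0.000176), and *GAGE12F* had 82 and 59 against 3 and 5 (-4.18, SE 0.534, adjusted p = 0.000120). The groups did not overlap in either gene. Reads may be shared between the copies, so the results for *GAGE1* and *GAGE12F* are not independent.

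At *CSAG4*, a knockout-only gene, some neighbours were higher with it, in the opposite direction to the GAGE genes. *CSAG4* overlaps *MAGEA12*, a melanoma antigen gene, which had 72 and 111 counts in control and 1019 and 1025 in the knockout (log2 difference 3.4, SE 0.176, adjusted p = 4.11e-07). *CSAG3* had 23 and 16 against 284 and 250 (3.69, SE 0.264, adjusted p = 2.78e-06), and *CSAG1* had 56 and 66 against 97 and 62, where the groups overlapped (0.30, adjusted p = 0.468). The summed CSAG counts were 79 and 82 against 398 and 326. *MAGEA2B*, also near *CSAG4*, was higher too (2.93, SE 0.963, adjusted p = 0.0274), with 6 and 0 counts against 22 and 28. *MAGEA6* (0.19, adjusted p = 0.0239) and *MAGEA3* (-0.27, adjusted p = 0.0584) at the same locus were not called. *GAGE1* and *GAGE12F* were thus lower and *MAGEA12*, *MAGEA2B* and *CSAG3* higher, all on the X chromosome. Over the cancer-testis family by symbol, 7 of 36 other tested genes were higher (19.4%) and 5 were lower (13.9%), beside 8.88% and 7.25% of all tested genes.

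For the other copies the sums gave less. The POTE genes summed to 328 and 350 counts in control and 597 and 715 in the knockout, where *POTEC* (0.82, SE 0.141, adjusted p = 0.000818) and *POTEF* (1.05, SE 0.311, adjusted p = 0.0169) were higher. No other tested gene of the RAB6, CTAGE or DPY19L sets was called (0 of 3, 0 of 5 and 0 of 6). Sums of the CTAGE genes were 283 and 412 against 375 and 510, so the groups overlapped.

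Close relatives of *GSTM5* were lower with it. The mu-class glutathione transferases, which conjugate glutathione to electrophilic drugs, sit in one cluster on chromosome 1. *GSTM1* had 3272 and 3337 counts against 1687 and 1463 (log2 difference -1.15, SE 0.069, adjusted p = 9.28e-07). *GSTM2* had 140 and 161 against 73 and 83 (-1.02, SE 0.234, adjusted p = 0.00443), and *GSTM4* had -0.68 (SE 0.074, adjusted p = 4.10e-05). *GSTM3* had 9323 and 8973 against 6780 and 6584, a difference of -0.53 (SE 0.042, adjusted p = 5.22e-06) that was under the fold threshold. All 4 genes were lower at an adjusted p below 0.05. Without the fold threshold so were 3904 of all 15150 tested genes. Among drug metabolism enzymes outside the CYP family, 6 of 46 other tested genes were lower (13.0%) and 8 were higher (17.4%), beside 7.25% and 8.88% of all tested genes.

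The immediate early gene *EGR1* was higher alongside *EGR2*. It had 1045 and 858 counts in control and 10574 and 10215 in the knockout, a log2 difference of 3.37 (SE 0.081, adjusted p = 3.12e-09). *EGR2* stood at 36 and 16 counts in the same libraries and at 0 in control, *EGR4* at 4 and 4, and *EGR3* at 0 and 8, each at 0 in control. *EGR3* and *EGR4* were too low to be tested. The 4 genes encode zinc finger factors induced within minutes of growth factor or stress signals.

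The lectin pathway genes around *MASP1* and *MASP2* did not move as one. Of 11 other genes listed, 5 were at 0 in all 4 libraries, among them *MBL2*, the lectin that carries both proteases, and *C4A* and *C4B*, the substrates of MASP2. *C3*, where all complement pathways meet, had 1646 and 1697 counts in control and 7711 and 7346 in the knockout (2.09, SE 0.047, adjusted p = 1.85e-09). *SERPING1*, the inhibitor of both proteases, had 83 and 98 against 61 and 52 and was lower (-0.76, SE 0.287, adjusted p = 0.0487). *C2* had 95 and 96 against 67 and 57 (-0.70, adjusted p = 0.0535). *COLEC10* had 30 and 19 against 29 and 32 (0.23, adjusted p = 0.722).

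Other relatives of the leading genes were mixed. Among the FERM-domain relatives of *EPB41L3*, 1 of 6 tested genes was called, beside 16.1% of all tested genes. It was *EPB41L4A*, with a log2 difference of 0.98 (SE 0.12, adjusted p = 9.04e-05). *EPB41L2*, the most abundant of these relatives, had 10619 and 10560 counts against 9595 and 9254 (-0.25). Among L1 adhesion genes, *NRCAM* was higher with *CHL1* (0.88, SE 0.136, adjusted p = 0.000417), while *L1CAM* had 40568 and 43389 counts against 46071 and 44369 (0.03, adjusted p = 0.507). The neurotensin receptors *NTSR1* (0.28, adjusted p = 0.126) and *SORT1* (-0.08, adjusted p = 0.133) were not called.

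Receptors and targets of the secreted genes were read in the same way. Of the receptors that neuregulins bind, *ERBB3* had 1070 and 1098 counts against 551 and 520 (-1.10, SE 0.095, adjusted p = 9.30e-06), and *ERBB4* had -0.16 (adjusted p = 0.403). *BMP2*, a ligand that Gremlin 1 binds, had 2076 and 2423 against 6313 and 5870 (1.36, SE 0.065, adjusted p = 2.48e-07), and *BMP4* had 63 and 54 against 45 and 52 (-0.35, adjusted p = 0.423). *CITED4*, a relative of *CITED1*, was lower, with 6571 and 7418 against 2366 and 2116 (-1.72, SE 0.063, adjusted p = 5.15e-08), and *CITED2* had 0.36 (adjusted p = 0.000190), under the fold threshold. No tested matrilin other than *MATN4* was called, nor was *UCP2*.

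**Figure D2:**
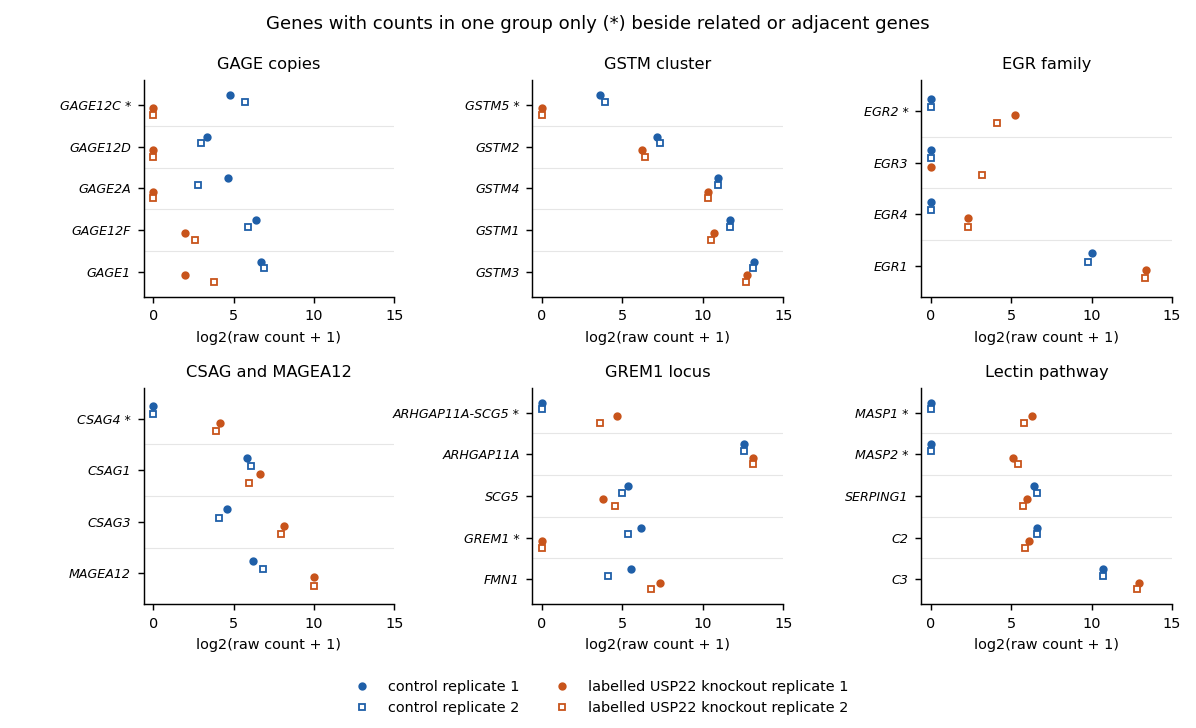
Raw counts on a log2(count + 1) axis for 6 sets of related or adjacent genes in the 4 libraries, with blue for control, orange for libraries labelled knockout, circles for replicate 1 and squares for replicate 2. An asterisk marks a gene with counts in one group only. *GAGE1* and the GSTM genes lie further left in the knockout, and *EGR1*, *MAGEA12*, *CSAG3* and *C3* lie further right.

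The gene families to which members belong by symbol were counted without the members. Among matrix and protease genes, which hold *ADAM19*, *ADAMTS12*, *MMP7* and *MUC16*, 22 of 116 other tested genes were lower (18.97%) and 16 were higher (13.8%). Among cytokines, growth factors and guidance ligands, the family of *NRG2*, 35 of 132 were higher (26.5%) and 9 were lower (6.82%). Protein 4.1 genes and membrane linkers, with *EPB41L3*, had 1 of 19 higher and 3 lower. Transporters outside SLC39, with *SLC44A4* and *ABCC8*, had 48 of 362 higher and 21 lower. Transcription factors, with *EGR2*, had 29 of 251 higher and 20 lower, and immune genes, with *CD7*, 7 of 54 higher and 4 lower. G protein-coupled receptors, with *GPR17*, had 16 of 113 higher and 14 lower, and ion channels, with *HTR3E* and the antisense gene *CACNA2D3-AS1*, 11 of 74 higher and 6 lower. The background shares are 8.88% and 7.25%, and no test was made of any family.

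Genes next to the members were counted as a measure the rule did not use. Within 100 kb of control-only genes lay 87 tested genes, of which 16 were lower (18.4%, beside 7.25% of all tested genes) and 11 were higher (12.6%, beside 8.88%). Of 19 control-only genes with such a neighbour, 8 had one that was lower. Within 100 kb of knockout-only genes lay 131 tested genes, of which 21 were higher (16.0%, beside 8.88%) and 11 lower (8.4%, beside 7.25%). Of 33 knockout-only genes with a tested neighbour, 12 had one that was higher. How often any gene has such a called neighbour was not computed, so the 8 of 19 and 12 of 33 carry no result. Within 1 Mb the share that was lower near control-only genes was 9.59% (37 of 386), and the share that was higher near knockout-only genes was 11.3% (81 of 718). Neighbours are not independent of each other, since several are copies from one cluster.

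The 16 lower neighbours of control-only genes lay beside 8 of these genes. They included the GSTM and GAGE copies, *AMACR* near *ADAMTS12*, *ZNF488* near *RBP3* and *DBNDD2* near *MATN4*. At *SLC44A4*, *HSPA1A* and *HSPA1B*, inducible heat shock chaperones 45.2 kb and 32.9 kb away, were lower. *HSPA1A* had 71742 and 70403 against 8333 and 7913 (log2 difference -3.21, SE 0.038, adjusted p = 2.53e-11). In the same locus *CFB*, a factor of the alternative complement pathway, was higher with 1495 and 1431 against 7253 and 7413 (2.25, SE 0.053, adjusted p = 2.89e-09). *MYO7B*, 8.43 kb from *GPR17*, had 119 and 118 against 24 and 25 (-2.35, SE 0.303, adjusted p = 0.000128), and *CTSH*, a lysosomal protease 14.9 kb from *RASGRF1*, was lower (-1.45, SE 0.193, adjusted p = 0.000162). *SLPI*, a secreted protease inhibitor 38.9 kb from *MATN4*, was higher (1.38, SE 0.047, adjusted p = 3.02e-08). Near *ADAMTS12*, *C1QTNF3-AMACR* was higher, with 6 and 0 counts against 21 and 44 (3.31, SE 0.962, adjusted p = 0.0156). Its symbol is a readthrough symbol that includes *AMACR*, which was lower. Readthrough genes had the least stable zeros, so the directions at *ADAMTS12* may not be told apart from a split of reads. Called neighbours at the *SLC44A4* and *MATN4* loci went in both directions.

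Among neighbours of knockout-only genes, *RASSF9*, 37.9 kb from *NTS*, had 597 and 568 counts in control and 2300 and 2161 in the knockout (1.86, SE 0.084, adjusted p = 1.77e-07). *KCNJ11*, the pore subunit that pairs with the product of *ABCC8* and lies 3.15 kb from it, had 135 and 126 against 242 and 226 (0.76, SE 0.182, adjusted p = 0.00556). *NUCB2* and *NCR3LG1* at that locus were higher too. *FAM124A*, a neighbour of *C13orf42*, had 395 and 396 against 1337 and 1269 (1.64, SE 0.096, adjusted p = 8.25e-07). *SECTM1*, which encodes a ligand of CD7 and lies 3.42 kb from *CD7*, had 597 and 611 against 1177 and 1070 (0.82, SE 0.095, adjusted p = 6.54e-05). Near *GFY* the neighbours went the other way, with *RCN3*, *FCGRT* and 4 SNORD genes lower. Small RNA genes were lower in 70 of 266 tested cases (26.3%) over the whole genome.

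Another listed gene overlapped 8 of 24 control-only genes (33.3%) and 18 of 37 knockout-only genes (48.6%), beside 40.3% of all 27622 listed genes with a position. The strand setting of the counting is not given in the sources used here, so reads of overlapping genes may not be told apart. Over all tested genes 8.88% were higher and 7.25% lower. The tested overlapping genes outside the sets were too few to give a share to set beside these. For control-only genes 1 of 6 was lower and 1 of 6 higher, and for knockout-only genes 3 of 14 were higher and 0 of 14 lower. The called genes were *MAGEA12*, *ZNF467*, *PUS3*, *LIMS2* and *CACNA2D3*. Among those not called was *TARDBP*, an RNA-binding protein gene that overlaps *MASP2*, with 19200 and 19647 counts against 19609 and 19243. *SSPO* overlaps *ZNF467*, which had 57 and 49 counts against 231 and 296 (2.23, SE 0.231, adjusted p = 3.06e-05). *HYLS1* overlaps *PUS3*, which was higher (0.61, SE 0.086, adjusted p = 0.000238). *GPR17* overlaps *LIMS2*, which was lower (-0.74, SE 0.139, adjusted p = 0.00145). *CACNA2D3-AS1* lies antisense within the calcium channel gene *CACNA2D3*, and there the directions were opposite, with *CACNA2D3* at 446 and 433 counts against 952 and 820 (0.93, SE 0.113, adjusted p = 8.48e-05).

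Some of the 61 genes also lay near each other. *SLC44A4* and *LOC100287329*, both control-only, lie 290 kb apart on chromosome 6. *GREM1* of the control-only set and *ARHGAP11A-SCG5* of the knockout-only set lie 20.9 kb apart on chromosome 15, in opposite directions. On the other side of *GREM1*, *FMN1*, an actin-nucleating formin 20.4 kb away, had 45 and 16 counts in control and 163 and 108 in the knockout (2.06, SE 0.440, adjusted p = 0.00301). *ADAM19* and *HAVCR1*, 408 kb apart on chromosome 5, also differed in direction.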

How the data were processed

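PolyA RNA-seq of 4 HepG2 libraries was analysed. The authors mapped reads to hg38 (HISAT2 2.2.1) and deposited whole-number gene counts from StringTie 2.2.1 without scaling for library size, and per the labels their own comparison used DESeq2 1.34.0. The annotation and strand setting are not given in the sources used here. Columns were assigned by name, and 0 columns were left unassigned.

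Genes were selected by the rule on raw counts. Counts were then fitted in R 4.3.3 with edgeR 4.0.16 (TMM, filterByExpr by group at 10 counts, glmQLFit, glmQLFTest, Benjamini-Hochberg adjustment over all tested genes), and genes were called past thresholds of 0.05 on the adjusted p and 1.5 on the fold. Every adjusted p in the text is from this fit. An SE is a log2 difference over the root of its F statistic, taken without sign. DESeq2 1.42.0 was an alternative. Between replicates the mean chi-square of a gene was 7.91 in control and 8.44 in the knockout, above sampling noise. Both tools were tested on simulated data. At a count of 0, folds are set against 3 counts per library, as a bound by counting error only, which leaves out the further spread between replicates. A readthrough gene is one whose symbol joins 2 listed symbols.

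The genes named are *USP22*, the 15 genes of each direction with the highest counts, genes within 1 Mb of another of the same direction, those nearest the threshold, coding genes of the symbol families, and an overlapping or called neighbour of each. The other members, the related genes and the further neighbours were named after their values were seen. The members and lists were chosen with earlier results of these data known. RefSeq, on GRCh38.p14, gave classes, positions and promoters. Of the 28278 symbols, 27622 matched.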

Additional observations from a re-analysis of the deposited data

How the results depend on the processing

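The sets depend most on the count minimum and on the number of libraries. With a minimum of 5 counts there were 69 control-only and 85 knockout-only genes, with 20 counts 10 and 9, and with 50 counts 3 and 4. Requiring the rule of only 1 library in a group, by leaving out each library in turn, gave 49 to 76 control-only and 67 to 105 knockout-only genes. The lowest were without control replicate 2 (49) and without knockout replicate 1 (67), and the highest without knockout replicate 2 (76) and without control replicate 1 (105). Fewer samples make the rule easier to meet by its construction, and every gene of the main sets was kept. Scaling counts to the smallest library left 24 and 30 genes, up to 3 counts in the other group 35 and 43, and leaving out no symbol 25 and 42. Of all tested genes, 4057 were higher and 3904 lower without the fold threshold. Over the other alternatives (DESeq2, scaling by RLE or by library totals, all genes or those with a mean of 50 counts, and leaving out each library) the numbers stayed between 1158 and 1557 higher and between 941 and 1139 lower. The share of neighbours that were lower near control-only genes was 9.59% within 1 Mb and 17.3% with DESeq2. The share that were higher near knockout-only genes was 11.3% within 1 Mb and 13.3% with DESeq2. No DESeq2 share over all genes was set beside these.

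With the replicate number as a block, 1341 genes were higher and 1100 lower, and both neighbour shares stayed at 18.4% and 16.0%. Nothing ties a replicate number to a batch, and the deviations of same-numbered libraries from their group means correlated at 0.275 across 11906 genes, which are not independent. With 2 libraries per group, depth limits every statement on genes near 10 counts.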
